A study of Mus musculus with 8 samples.

Results

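Described here are 10 of the 27679 genes in the count table of the series, a set from the Hippo pathway called the Hippo genes here. Other core genes of the pathway, such as Stk3, Sav1, Mob1a, Mob1b and Nf2, are outside this set and were placed in a separate list. They are the genes of the coactivators YAP (Yap1) and TAZ (Wwtr1), of the TEAD transcription factors (Tead1, Tead2, Tead3 and Tead4), of the kinases LATS1, LATS2 and MST1 (Lats1, Lats2 and Stk4), and of the angiomotin-like protein AMOTL2 (Amotl2). They were chosen by name, as the rows whose mouse Ensembl identifier maps to one of these symbols, and all 10 were found in the table.

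In the Hippo pathway, MST kinases activate LATS kinases, and LATS kinases phosphorylate YAP and TAZ, which are then held in the cytoplasm or degraded. Unphosphorylated YAP and TAZ enter the nucleus and act through TEAD proteins, which bind the DNA of their target genes. The pathway is known to respond to the stiffness of the cell's surroundings and to cell shape, and LATS kinases restrain YAP in cells that fail to divide, as megakaryocytes do when they become polyploid. These steps act on proteins, and RNA counts measure neither phosphorylation nor the place of a protein in the cell.

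The cells were megakaryocytes, the large marrow cells that release platelets, grown from bone marrow of wild-type C57BL/6 mice. Marrow cells depleted of lineage-positive cells spent 3 days in a hydrogel of methylcellulose (2%, stated stiffness 30 to 60 Pa as Young modulus) or in liquid medium, and larger cells were then taken from a BSA gradient. Both groups had the same genotype and the same enrichment step, and there were 4 libraries of each. The submitters call the 4 cultures independent biological replicates. The title of the series concerns mechanical confinement and platelet release, and hydrogel against liquid is its only contrast.

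Library totals were 27012172 to 37059314 counts in hydrogel and 28825468 to 49281611 in liquid. The label of the cells was checked on marker lists. Markers counted as higher or lower are those called by edgeR's quasi-likelihood test at an adjusted p under 0.05. Of all tested genes, 15.1% were called higher in hydrogel and 14.1% lower. All 18 megakaryocyte markers were measured, 13 were lower in hydrogel and 0 higher, and their sum was 28810 to 41770 CPM (TMM-scaled CPM, each gene's reads relative to its library's total) in hydrogel and 35250 to 57440 CPM in liquid. Macrophage markers moved the other way. Of 22 tested, 18 were higher and 0 lower, with sums of 5930 to 13140 CPM in hydrogel and 1514 to 3445 CPM in liquid. Hydrogel 1, at 5930 CPM, and liquid 2, at 3445 CPM, stood apart from the rest of their groups, each towards the other group, so the tested Hippo genes are given with and without this pair, and genes of the other lists where omitting it changes a call or moves a fold by over 1.5 times. Since each of them lies towards the other group, omitting both widens many differences by its construction. Stromal and endothelial markers summed to 62.7 to 83.5 CPM in hydrogel and 127 to 157 CPM in liquid (1 of 7 higher, 1 lower), and without Kdr to 25.4 to 30.5 CPM in hydrogel and 25.6 to 37.2 CPM in liquid. Mast cell and basophil markers summed to 54.4 to 164 CPM in hydrogel and 95.5 to 516 CPM in liquid (0 of 7 higher, 6 lower). Neutrophil markers summed to 390 to 919 CPM in hydrogel and 398 to 1742 CPM in liquid (2 of 11 higher, 2 lower), and erythroid markers to 70.3 to 109 CPM in hydrogel and 107 to 161 CPM in liquid (0 of 4 higher, 2 lower). Without Epor the erythroid sum was 9.67 to 19.8 CPM in hydrogel and 13.1 to 22.03 CPM in liquid. No row of the count table is at 0 in all libraries, so neither was any marker found in it. The mast cell marker Tpsab1 had no row.

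TEAD proteins bind the letters GGAATG. Promoters of the YAP gene and of Amotl2 and Lats2, known targets of YAP, are shown with these letters in capitals. They were picked because these genes changed between the cultures and also hold the letters, so the choice shows no link between letters and change. The motif was searched on both strands (CATTCC is its reverse complement) in RefSeq windows of 300 bases, from 250 before to 50 after an annotated start, on GRCm38.p6. It occurs in 14.7% of the 32851 windows of all genes and in 7 of 12 windows of the Hippo genes, some of which overlap each other. The 7 windows belong to Wwtr1, Yap1, Amotl2, Lats2 and Tead3, which are 5 of the 8 Hippo genes with a window. The windows of Stk4 and Tead2, which also changed between the cultures, and of Lats1, which did not, do not hold these letters. Of the genes that hold them, Wwtr1 did not pass the test of a change and Tead3 was not tested. Printed 5′ to 3′ on each gene's strand are the 250 bases before the start and the first 10 transcribed bases of Yap1 (minus strand, chr9:8004587-8004846), Amotl2 (plus strand, chr9:102717554-102717813) and the first start of Lats2 (minus strand, chr14:57746114-57746373).
Yap1: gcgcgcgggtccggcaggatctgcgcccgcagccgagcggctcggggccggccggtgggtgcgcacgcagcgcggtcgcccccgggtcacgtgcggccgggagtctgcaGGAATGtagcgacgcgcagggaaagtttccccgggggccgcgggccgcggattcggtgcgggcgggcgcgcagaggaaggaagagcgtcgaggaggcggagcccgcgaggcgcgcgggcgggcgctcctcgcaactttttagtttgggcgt
Amotl2: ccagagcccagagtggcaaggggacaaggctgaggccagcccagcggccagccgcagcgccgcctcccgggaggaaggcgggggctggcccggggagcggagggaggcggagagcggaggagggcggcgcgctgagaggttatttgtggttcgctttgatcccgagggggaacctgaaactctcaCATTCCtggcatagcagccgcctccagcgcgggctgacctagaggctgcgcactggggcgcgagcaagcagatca
Lats2: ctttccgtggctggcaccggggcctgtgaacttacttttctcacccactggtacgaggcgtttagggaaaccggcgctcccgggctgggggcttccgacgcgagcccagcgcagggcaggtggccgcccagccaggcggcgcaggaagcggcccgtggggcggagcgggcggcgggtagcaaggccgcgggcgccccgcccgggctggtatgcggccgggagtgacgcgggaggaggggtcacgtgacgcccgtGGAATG
In Yap1 the motif lies on the gene's strand with its first base at position −141 from the start. In Amotl2 it lies on the opposite strand at −65, and in Lats2 on the gene's strand at 5, just inside the transcript. A match of letters is a description of the window and shows no binding. The second annotated start of Lats2 has no match.

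Of the 10 Hippo genes, 7 had enough counts to be tested. Yap1, Tead2, Amotl2 and Stk4 were lower in hydrogel, Lats2 was higher, and Wwtr1 and Lats1 did not pass (edgeR's quasi-likelihood test, Benjamini-Hochberg adjusted p under 0.05 over 13845 genes). That is 5 of 7 called, where 29.3% of all tested genes were called, 15.1% higher and 14.1% lower. The set was chosen with earlier results of these data known, so its share cannot be read as that of an unselected set. The median log2 change of the 7 was −0.38, against −0.01 for all tested genes. For Yap1, Tead2 and Amotl2 the 4 hydrogel libraries lay wholly below the 4 liquid libraries, a separation seen in either direction in 28.4% of tested genes. In bulk RNA, fewer cells of a type and less RNA per cell cannot be told apart, and this holds for every change given here.

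**Figure D1:**
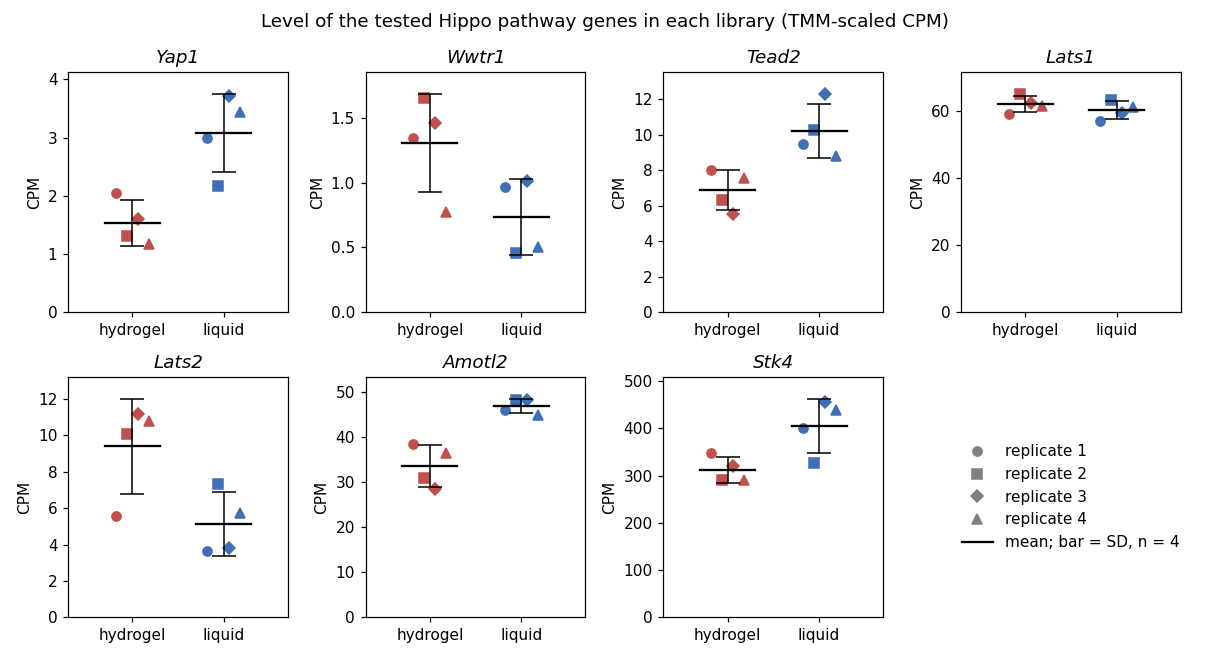
TMM-scaled CPM (vertical axes, from 0) of the 7 tested Hippo genes in each of the 4 hydrogel and 4 liquid libraries, with mean and SD as bars. Yap1, Tead2 and Amotl2 do not overlap between the groups and are lower in hydrogel, whereas hydrogel 1 overlaps the liquid group in Lats2 and liquid 2 overlaps the hydrogel group in Stk4.

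Yap1 (ENSMUSG00000053110) encodes YAP. Its level was 2.05, 1.31, 1.61 and 1.17 CPM in hydrogel 1 to 4 and 2.99, 2.17, 3.72 and 3.44 CPM in liquid 1 to 4. Every hydrogel library was below every liquid library, with hydrogel 1 the highest and liquid 2 the lowest of their groups. The means were 1.53 ± 0.392 CPM in hydrogel and 3.08 ± 0.676 CPM in liquid (SD, n = 4 each). Yap1 fell by 1.003 ± 0.246 (SE) on the log2 scale, with an edgeR adjusted p of 0.0130. These levels rest on 197 reads over the hydrogel libraries and 458 over the liquid libraries. Exons of Yap1 overlap Gm20416, a gene model on the other strand that has no row in the table. The call held when any 1 library was left out (adjusted p of 0.00404 to 0.0455), and with hydrogel 1 and liquid 2 both omitted the log2 change was −1.30 (0.000704).

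Wwtr1 (ENSMUSG00000027803) encodes TAZ, the paralog of YAP. It had 1.34, 1.66, 1.46 and 0.777 CPM in hydrogel 1 to 4 and 0.963, 0.460, 1.01 and 0.502 CPM in liquid 1 to 4. Hydrogel 1, 2 and 3 were above all liquid libraries, and hydrogel 4 lay within the liquid range. The means were 1.31 ± 0.378 CPM in hydrogel and 0.734 ± 0.294 CPM in liquid (SD, n = 4 each). The log2 difference of 0.82 ± 0.351 (SE, 95% interval 0.04 to 1.60) did not pass after adjustment (adjusted p = 0.105, edgeR). It did not pass in any single omission either, nor with hydrogel 1 and liquid 2 both omitted (0.66, adjusted p = 0.198).

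The ratio of Wwtr1 to Yap1 counts was set within each library, where the scaling between libraries plays no part. It is not adjusted for exon length, 4.78 kb for Wwtr1 and 9.26 kb for Yap1, and so is not a ratio of transcript numbers. Per kilobase of exon, mean levels in hydrogel were 0.27 CPM for Wwtr1 and 0.17 CPM for Yap1. In liquid they were 0.15 CPM for Wwtr1 and 0.33 CPM for Yap1. Wwtr1 counts were 0.656, 1.26, 0.910 and 0.671 times the Yap1 counts in hydrogel 1 to 4, and 0.326, 0.218, 0.274 and 0.149 times in liquid 1 to 4. All hydrogel ratios were above all liquid ratios, and only in hydrogel 2 did Wwtr1 counts exceed Yap1 counts. The mean log2 ratios were −0.25 ± 0.442 in hydrogel and −2.10 ± 0.487 in liquid (SD, n = 4 each). The difference was 1.86, with a two-sided exact permutation p of 0.0286, the smallest p that this design allows, and 0.0429 after adjustment over the 3 ratios tested. Without hydrogel 1 and liquid 2 the difference was 1.95, where the smallest p possible in the exact test is 0.1.

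**Figure D2:**
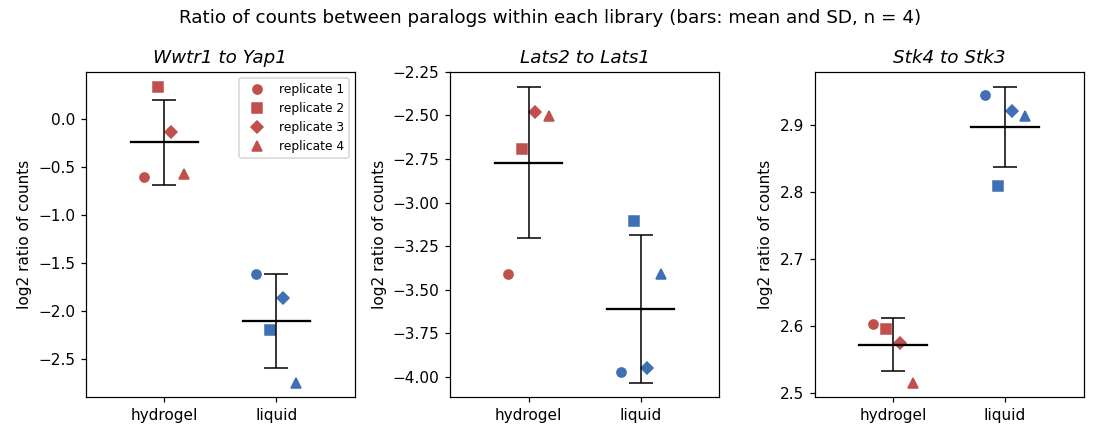
Log2 ratio of counts (vertical axes) between paralogs in each of the 4 hydrogel and 4 liquid libraries, with mean and SD as bars: Wwtr1 to Yap1, Lats2 to Lats1 and Stk4 to Stk3. The groups do not overlap in the first and last panels, and hydrogel 1 lies inside the liquid range in the middle one.

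TEAD proteins are the DNA-binding partners of YAP and TAZ, and of their 4 genes only Tead2 had enough reads to test. Tead2 (ENSMUSG00000030796) had 8.00, 6.34, 5.55 and 7.57 CPM in hydrogel 1 to 4 and 9.47, 10.3, 12.3 and 8.80 CPM in liquid 1 to 4. The highest hydrogel library was below the lowest liquid library. Means were 6.86 ± 1.12 CPM in hydrogel and 10.2 ± 1.53 CPM in liquid (SD, n = 4 each). Tead2 fell by 0.57 ± 0.155 (SE) on the log2 scale, 1.49-fold, with an edgeR adjusted p of 0.0202. The call was lost without hydrogel 2 (adjusted p = 0.0646), hydrogel 3 (0.0580) or liquid 3 (0.0538), and without both hydrogel 1 and liquid 2 the log2 change was −0.64 (0.00901). Exons of Tead2 overlap Cd37, a leukocyte tetraspanin gene on the other strand, and since the strand setting of the counting is not given, reads of the pair cannot be told apart. Cd37 stood at 136 ± 12.9 CPM in hydrogel and 133 ± 15.4 CPM in liquid, a log2 difference of 0.03 (adjusted p = 0.867, edgeR).

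Tead1, Tead3 and Tead4 were near the limit of detection and were not tested. Tead1 (ENSMUSG00000055320) had 0, 0, 0 and 1 reads in hydrogel 1 to 4 and 9, 5, 0 and 8 reads in liquid 1 to 4. Its sum of 1 read in hydrogel has an exact 95% Poisson interval of 0.0253 to 5.57, and its sum of 22 reads in liquid one of 13.8 to 33.3. Liquid 3, with the largest total of all libraries, had none, so the reads come from liquid 1, 2 and 4. Tead3 (ENSMUSG00000002249) had 2, 0, 3 and 2 reads in hydrogel, a sum of 7 (interval 2.81 to 14.4), and 1, 9, 7 and 1 reads in liquid, a sum of 18 (10.7 to 28.4). Tead4 (ENSMUSG00000030353) had 0, 0, 3 and 2 reads in hydrogel, a sum of 5 (1.62 to 11.7), and 2, 0, 0 and 0 reads in liquid, a sum of 2 (0.242 to 7.22). The groups overlap for all of them, and a count of 0 allows up to 3 reads, which is 0.0660 to 0.109 CPM depending on the library. These intervals and limits cover counting error only, not the spread between cultures.

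LATS1 and LATS2 are the kinases that phosphorylate YAP and TAZ. Lats1 (ENSMUSG00000040021) had 59.1, 65.1, 62.3 and 61.3 CPM in hydrogel 1 to 4 and 57.1, 63.3, 59.4 and 61.2 CPM in liquid 1 to 4. Its libraries were interleaved. The log2 difference was 0.04 ± 0.0606 (SE, 95% interval −0.09 to 0.18, adjusted p = 0.649, edgeR), a small value whose sign turns with upper-quartile scaling (−0.013). With hydrogel 1 and liquid 2 both omitted it was 0.10 (adjusted p = 0.285).

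Lats2 (ENSMUSG00000021959), itself a known target of YAP, was the only one of the Hippo genes called higher. It had 5.56, 10.1, 11.2 and 10.8 CPM in hydrogel 1 to 4 and 3.63, 7.33, 3.83 and 5.74 CPM in liquid 1 to 4. Hydrogel 2, 3 and 4 were above all liquid libraries, and hydrogel 1 was below liquid 2 and liquid 4. Means were 9.40 ± 2.60 CPM in hydrogel and 5.13 ± 1.75 CPM in liquid (SD, n = 4 each), and Lats2 rose by 0.87 ± 0.276 (SE) on the log2 scale, 1.83-fold, with an edgeR adjusted p of 0.0381. This call depended on most of the libraries. It was lost without hydrogel 2 (adjusted p = 0.0921), hydrogel 3 (0.101), hydrogel 4 (0.0959), liquid 1 (0.0972), liquid 3 (0.0920) or liquid 4 (0.0685). With that pair of libraries (hydrogel 1 and liquid 2) omitted, the log2 change was 1.29 (adjusted p = 9.15e-05). Another gene model, Gm49361, overlaps its exons on the same strand and has no row in the table.

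Lats2 counts were 0.0942, 0.155, 0.180 and 0.176 times the Lats1 counts in hydrogel 1 to 4, and 0.0638, 0.116, 0.0646 and 0.0939 times in liquid 1 to 4. Lats1 transcripts outnumbered Lats2 transcripts in every library. The hydrogel ratios were the higher ones except in hydrogel 1, which lay below liquid 2. The difference of 0.84 in mean log2 ratio had an exact permutation p of 0.0571, raw and adjusted, and without both hydrogel 1 and liquid 2 it was 1.22.

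Stk4 (ENSMUSG00000018209) encodes MST1, the kinase upstream of LATS. It was the most abundant of the 10 genes, with 348, 290.0, 321 and 290.4 CPM in hydrogel 1 to 4 and 401, 327, 456 and 438 CPM in liquid 1 to 4. Liquid 1, 3 and 4 were above all hydrogel libraries, and liquid 2 was below hydrogel 1. Means were 312 ± 27.8 CPM in hydrogel and 405 ± 57.1 CPM in liquid (SD, n = 4 each), and Stk4 fell by 0.38 ± 0.112 (SE) on the log2 scale, 1.30-fold, with an edgeR adjusted p of 0.0299. The call was lost without hydrogel 2 (adjusted p = 0.0945), hydrogel 3 (0.0657), hydrogel 4 (0.0885), liquid 1 (0.0613), liquid 3 (0.0724) or liquid 4 (0.0828). Without both hydrogel 1 and liquid 2 the log2 change was −0.51 (adjusted p = 0.000162).

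Stk3, the gene of the closely related kinase MST2, had 52.5 ± 3.98 CPM in hydrogel and 54.2 ± 6.14 CPM in liquid (SD, n = 4 each), a log2 difference of −0.05 with an adjusted p of 0.732 in edgeR, whose sign turns with library totals alone (0.019). Stk4 counts were 6.08, 6.04, 5.96 and 5.72 times the Stk3 counts in hydrogel 1 to 4, and 7.69, 7.01, 7.57 and 7.53 times in liquid 1 to 4. The highest ratio in hydrogel was below the lowest in liquid, and it varied little within a group. The difference in mean log2 ratio was −0.33 (exact permutation p = 0.0286, adjusted 0.0429), and −0.36 without both hydrogel 1 and liquid 2.

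Amotl2 (ENSMUSG00000032531) encodes a junction protein that binds YAP and TAZ, and it is itself a known target of YAP. It had 38.6, 31.1, 28.6 and 36.6 CPM in hydrogel 1 to 4 and 46.2, 48.2, 48.3 and 45.1 CPM in liquid 1 to 4. All hydrogel libraries were lower, and the liquid libraries lay close together. Means were 33.7 ± 4.69 CPM in hydrogel and 46.9 ± 1.60 CPM in liquid (SD, n = 4 each). Amotl2 fell by 0.48 ± 0.0978 (SE) on the log2 scale, 1.39-fold, with an edgeR adjusted p of 0.00564, the smallest of the 7. It was the only Hippo gene to pass at an adjusted p of 0.01, and its call held when any 1 library was left out (0.00228 to 0.0235) and without both hydrogel 1 and liquid 2 (−0.52, adjusted p = 0.00106).

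**Figure D3:**
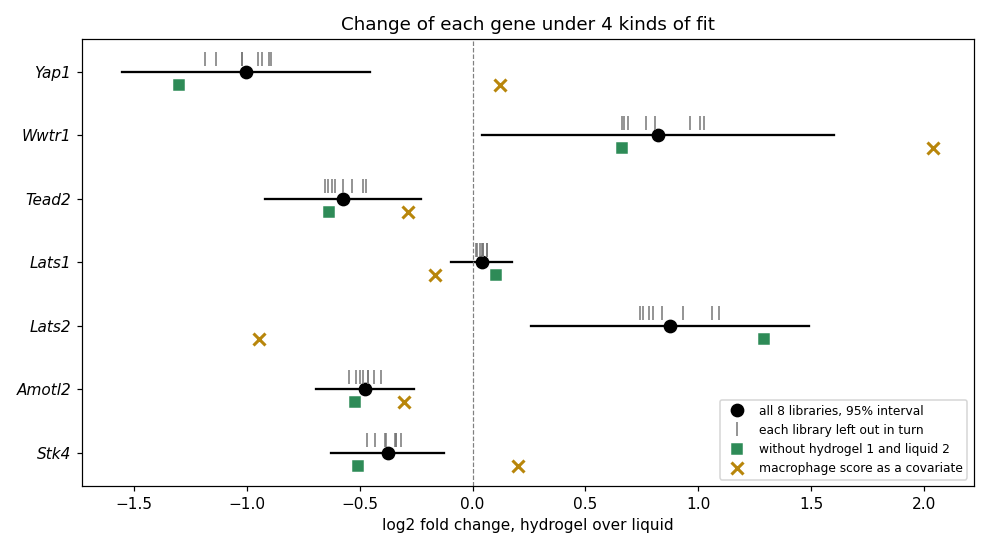
Log2 fold change of hydrogel over liquid (horizontal axis) for the 7 tested Hippo genes, with all 8 libraries and 95% interval (circles), with each library left out in turn (ticks), without hydrogel 1 and liquid 2 (squares), and with a score of macrophage markers in the fit (crosses). Squares and ticks keep the sign of the circles, and the crosses of Yap1, Lats1, Lats2 and Stk4 lie on the other side of 0.

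The number of Hippo genes called was 2 without hydrogel 2, without hydrogel 3 or without liquid 3, and 3 without hydrogel 4, liquid 1 or liquid 4. Over all genes the calls fell too, from 4052 to 2700, 2890 and 3436 in the first of these fits. They fell to 3071, 3273 and 3030 in the others, of 14058 to 14145 tested in each. The number of Hippo genes called was 5 when hydrogel 1, liquid 2 or the pair was omitted, where 4234, 4975 and 5633 of all tested genes were called. A score of the macrophage markers in each library moved with the culture, sharing 84% of its variance with it (variance inflation factor 6.25). With that score as a covariate, 0 of the 7 passed in edgeR, where 484 of all tested genes did. The log2 changes were then 0.12 for Yap1 (adjusted p = 0.930), −0.29 for Tead2 (0.719), −0.95 for Lats2 (0.143), −0.30 for Amotl2 (0.511) and 0.20 for Stk4 (0.631). In this design the culture and the macrophage markers cannot be told apart.

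Per kilobase of exon, which allows levels to be compared between genes, Stk4 stood at 53.3 ± 4.74 CPM per kb in hydrogel and 69.2 ± 9.75 in liquid. Lats1 followed with 8.49 ± 0.337 in hydrogel and 8.25 ± 0.360 in liquid, and then Amotl2 with 5.36 ± 0.746 in hydrogel and 7.46 ± 0.254 in liquid. Next in order were Tead2, with 1.43 ± 0.235 in hydrogel and 2.13 ± 0.319 in liquid, and Lats2, with 1.35 ± 0.373 in hydrogel and 0.736 ± 0.251 in liquid. The libraries of these 2 genes overlapped in hydrogel and did not in liquid. The coactivators were the lowest of the 7 tested genes. Wwtr1 had 0.274 ± 0.0790 CPM per kb in hydrogel and 0.154 ± 0.0614 in liquid, and Yap1 had 0.166 ± 0.0424 in hydrogel and 0.332 ± 0.0731 in liquid (SD, n = 4 each). The libraries of the 2 coactivators overlapped in hydrogel, and in liquid Yap1 was above Wwtr1 in all pairs of libraries. Among 13622 tested genes with an exon length, 5.73% lay below Yap1 in hydrogel and 11.6% in liquid. For Wwtr1 the share was 9.73% in hydrogel and 5.46% in liquid, and for Stk4 it was 93.9% in hydrogel and 95.2% in liquid.

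Of 23 tested genes among 27 other Hippo kinases, adaptors and activators, 4 were higher and 5 lower in hydrogel (39.1%, against 29.3% of all tested genes), with a median log2 change of 0.02. The largest value was that of Rassf4, of the RASSF family that binds MST kinases, with 177 ± 55.9 CPM in hydrogel and 46.3 ± 26.9 CPM in liquid (log2 change 1.93 ± 0.371 SE, adjusted p = 0.00400, edgeR). Rassf4 had 95.05 CPM in hydrogel 1 and 86.2 CPM in liquid 2, the lowest and highest of their groups, as for the macrophage markers. Map4k4, of a kinase family that can phosphorylate LATS, rose by 0.69 (adjusted p = 0.00524), and Rassf2 and Nf2 were the other genes called higher. Map4k4 and Rassf2 were also lowest in hydrogel 1 and highest in liquid 2 within their groups. Nf2 was lowest in hydrogel 1 but highest in liquid 3. Sav1, the scaffold that joins MST to LATS, fell to 79.0 ± 1.96 CPM in hydrogel, against 97.1 ± 8.50 CPM in liquid (log2 change −0.30, adjusted p = 0.0118). Wwc2, a scaffold related to KIBRA, fell by 0.44 (0.000922) and Map4k1, a blood-cell kinase of the Map4k family, by 0.31 (0.00331) on the log2 scale, and Frmd6 and Tnik were also lower. The abundant genes that did not pass were Mob1b, of the LATS coactivators (−0.38, 0.0546), Taok3, of the TAO kinases upstream of MST (0.10, 0.546), and Mink1 (−0.24, 0.181). Mob1b passed without hydrogel 1 (adjusted p = 0.0430), without liquid 2 (0.00950) and without both (0.00140), and also with DESeq2 (0.0271), upper-quartile scaling (0.0310), library totals alone (0.0482) and no filter (0.0367). With the pair omitted, Mink1 passed too (0.0369), and the log2 change of Rassf4 was 2.64. The count called was 14 of 23 with liquid 2 left out and 19 of 23 with hydrogel 1 and liquid 2 both left out. Calls over all genes rose in the same fits too, from 4052 to 4975 of 14060 tested and 5633 of 13890 tested.

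**Figure D4:**
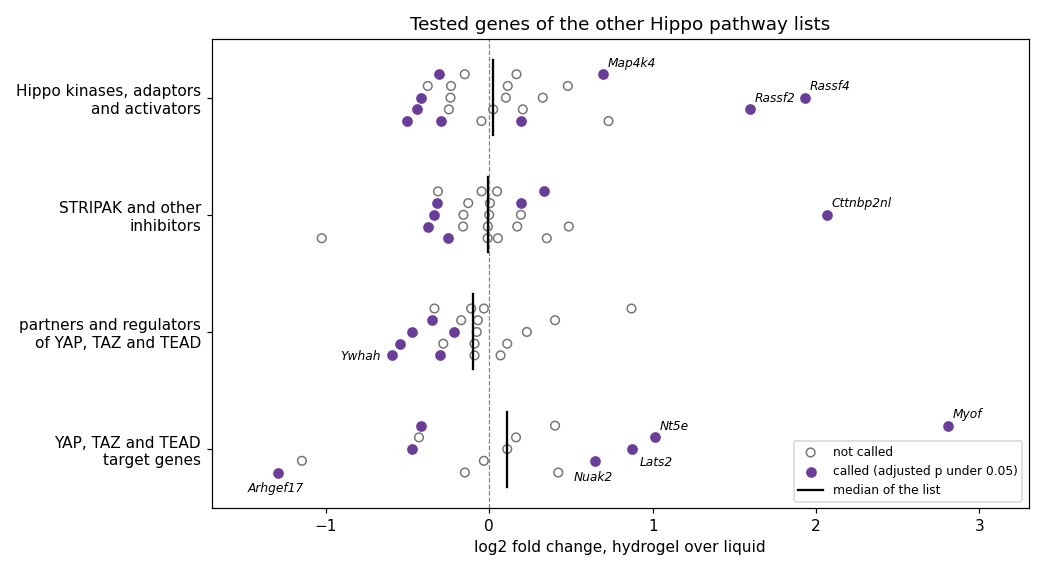
Log2 fold change of hydrogel over liquid (horizontal axis) of each tested gene of 4 Hippo pathway lists, with called genes filled (edgeR adjusted p under 0.05) and the median of each list as a bar. Medians lie between −0.10 and 0.11, and the largest values are those of Myof, Cttnbp2nl and Rassf4; the target list also holds Lats2 and Amotl2.

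Inhibitors of the kinases, most of them of the STRIPAK phosphatase complex that acts on MST, had 3 higher and 4 lower of 23 tested (30.4%, against 29.3%), with a median of −0.01. Cttnbp2nl, of that complex, had 24.9 ± 8.43 CPM in hydrogel and 5.97 ± 4.22 CPM in liquid (log2 change 2.07 ± 0.431 SE, adjusted p = 0.00600, edgeR). Without liquid 2 its log2 change was 2.67, and with hydrogel 1 omitted as well it was 2.89. In hydrogel 1 it had 13.3 CPM and in liquid 2 12.2 CPM, the lowest and highest values of their groups, as for the macrophage markers. Limd1, a LIM protein that binds LATS, rose by 0.33 (adjusted p = 0.00330), and Strn4 by 0.20 (0.0373). Strn4 lost its call without hydrogel 1 (0.0785), hydrogel 2 (0.105), hydrogel 3 (0.0696), hydrogel 4 (0.0707), liquid 1 (0.0958) or liquid 4 (0.0930), with upper-quartile scaling (0.102) and with no filter (0.142). The STRIPAK genes Stk26 (−0.32, 0.00689) and Mob4 (−0.34, 0.00918) fell by small amounts, as did Stk24. The phosphatase genes Ppp2ca (−0.16, 0.176) and Ppp2r1a (0.17, 0.0610) and Slmap, which brings the complex to MST (0.05, 0.791), did not pass. Ppp2ca passed without liquid 2 (adjusted p = 0.0357) and with hydrogel 1 omitted as well (0.0132), and Ppp2r1a passed with DESeq2 (0.0146) and library totals alone (0.0306). In all, 11 of 23 tested genes of the list were called without both hydrogel 1 and liquid 2. In that fit 5633 of all 13890 tested genes were called. The sign of Slmap turned without hydrogel 1 (−0.014), without liquid 2 (−0.033) and with upper-quartile scaling (−0.0037).

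Of 20 tested partners and regulators of YAP, TAZ and TEAD, 6 were lower in hydrogel and 0 higher (30.0%, against 29.3%), with a median of −0.10. Csnk1e, a casein kinase that marks YAP for degradation, fell to 61.5 ± 3.59 CPM in hydrogel, against 89.6 ± 6.00 CPM in liquid (log2 change −0.54 ± 0.0703 SE, adjusted p = 0.000670, edgeR). Of the 14-3-3 genes, whose proteins hold phosphorylated YAP in the cytoplasm, Ywhah (−0.60, 0.00813), Ywhaq (−0.35, 0.0255) and Ywhaz (−0.30, 0.0446) fell, which is 3 of 7 tested. Ywhae (−0.11, 0.321), Ywhag (0.11, 0.326), Ywhab (−0.09, 0.387) and Sfn (−0.28, 0.148) did not pass, though Ywhag did with library totals alone (0.0413). Amot, the relative of Amotl2, fell by 0.47 on the log2 scale (0.0475), and Runx1, a partner of YAP, by 0.22 (0.0499). The call of Runx1 was lost without hydrogel 1 (0.0852), hydrogel 2 (0.133), hydrogel 3 (0.109), hydrogel 4 (0.110), liquid 3 (0.0888) or liquid 4 (0.121), and also with DESeq2's size factors (0.0551), library totals alone (0.125), no filter (0.111) and limma-voom (0.0554). Ptpn11, the gene of the phosphatase SHP2, did not pass (−0.34, 0.104), but did without hydrogel 1 (0.0396), without liquid 2 (0.0222) and without both (0.000521). Ywhaq lost its call without hydrogel 2 (adjusted p = 0.0819), hydrogel 3 (0.0637), liquid 1 (0.0511) or liquid 4 (0.0566) and with library totals alone (0.0863). Ywhaz lost its call without hydrogel 2 (0.137), hydrogel 3 (0.111), hydrogel 4 (0.0996), liquid 1 (0.109), liquid 3 (0.0843) or liquid 4 (0.117). Amot lost its call without hydrogel 1 (0.0749), hydrogel 2 (0.132), hydrogel 4 (0.121), liquid 3 (0.117) or liquid 4 (0.120) and with library totals alone (0.0749). Without hydrogel 2 or without liquid 4, 3 of 21 tested genes of the list were called. Over all genes, 2700 of 14127 and 3030 of 14058 were called in these fits. Library totals alone gave 1 higher and 3 lower, where 2280 of all tested genes were higher and 1513 lower.

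Target genes of YAP, TAZ and TEAD moved in both directions. Of 15 tested in a published signature of 22, 4 were higher and 3 lower (46.7%, against 29.3%), with a median of 0.11, and Lats2 and Amotl2 are among them. Myof, the gene of the membrane repair protein myoferlin, had 125 ± 43.4 CPM in hydrogel and 17.9 ± 11.1 CPM in liquid (log2 change 2.80 ± 0.421 SE, adjusted p = 0.00122, edgeR). It had 63.6 CPM in hydrogel 1 and 33.9 CPM in liquid 2, again the lowest and highest of their groups, and without both libraries its log2 change was 3.53. Nt5e, the gene of the surface enzyme CD73, had 78.2 ± 9.08 CPM in hydrogel and 38.7 ± 7.87 CPM in liquid (1.01, adjusted p = 0.000906). Arhgef17 fell to 10.3 ± 1.84 CPM in hydrogel, against 25.3 ± 4.18 CPM in liquid (−1.29, adjusted p = 0.000501). The kinase gene Nuak2 rose by 0.65 (0.0307), and Crim1 fell by 0.42 (0.0174) on the log2 scale.

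The most familiar targets were low. Ccn1, which encodes CYR61, had 2.95 ± 0.680 CPM in hydrogel and 2.20 ± 0.466 CPM in liquid (adjusted p = 0.193). Ccn2, which encodes CTGF, had 0.717 ± 0.596 CPM in hydrogel and 0.984 ± 0.741 CPM in liquid (adjusted p = 0.707, edgeR), and Ankrd1 had 1 read over all libraries. Without both hydrogel 1 and liquid 2, Ccn1 passed with a log2 change of 0.72 (0.0205), Asap1 passed with −0.32 (0.00804), and Ccn2 stood at −1.16 (0.257). The abundant targets Asap1 (−0.15, 0.417) and Dock5 (0.11, 0.524) did not pass, and neither did the receptor gene Axl (−0.03, 0.952), whose level of 53.2 CPM in liquid 2 stood against 15.7 to 22.4 CPM in the other liquid libraries. Without liquid 2 the log2 change of Axl was 0.52 (0.0268), without hydrogel 1 it was 0.07, and without both it was 0.63 (0.00199). Crim1 lost its call without hydrogel 2 (0.0581) or hydrogel 4 (0.0554), and Nuak2 without hydrogel 2 (0.0875), hydrogel 3 (0.0929), liquid 3 (0.0769) or liquid 4 (0.0867). Without hydrogel 2, 4 of 15 tested targets were called, where 2700 of all 14127 tested genes were. With the macrophage score as a covariate, 0 genes of the other lists were called and 2 targets were: Nt5e, with a log2 change of 1.69 (0.00542), and Axl, with one of −2.03 (0.00542). Myof (0.14, 0.852), Rassf4 (−0.46, 0.328) and Cttnbp2nl (−0.68, 0.207) were not called in that fit.

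The genes most like Lats2, Amotl2 and Yap1 across the 8 libraries were taken from 9417 genes with a mean of at least 5 CPM, by the root mean square difference between log2 CPM profiles centred on each gene's mean. For Lats2 these were Dclre1c (0.0970), Sgk3 (0.13) and Slc46a3 (0.158), where the median gene differed by 0.616. For Amotl2 they were Wdr45 (0.0700), Tmem9 (0.0740) and Sigirr (0.0800), against a median of 0.310. For Yap1 they were Pkd1l3 (0.0830), Capn3 (0.0850) and Cysltr2 (0.0980), against a median of 0.590. The likeness includes the difference between the cultures that all of these genes share.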

How the data were processed

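The deposited table holds raw counts per gene as made by the authors, with no normalization. Per the labels' protocols, stranded polyA libraries were made from 150 ng of RNA with 13 PCR cycles. The submitters' processing notes name STAR 2.7.10b, HTSeq 0.13.5, bcl2fastq and build GRCm39; the sources used here do not give the annotation release or the counting settings, strand included. Symbols, exon lengths and overlaps came from GENCODE on GRCm38 (26534 of 27679 identifiers matched, 11 symbols shared), and 2 stray lines were left out.

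Genes were filtered with filterByExpr (13845 kept), TMM-scaled and put through the quasi-likelihood test of edgeR 4.0.16 (R 4.3.3); culture was the single term. Standard errors are the log2 fold change divided by the square root of F. Ratios used counts plus 0.5; 5 of 8 planned ratios were not tested because a gene failed the filter. On simulated counts for hydrogel against liquid (13845 genes), edgeR recovered 36.4% of 1.5-fold, 72.7% of 2-fold and 93.8% of 4-fold changes, with 6.38% of 141 calls false. Far fewer genes were changed in the simulation than were called in the data (4052), so these shares need not hold for the real contrast.

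The Hippo genes and all lists were chosen with earlier results of these data known. Named were all 10 Hippo genes, up to 5 passing and the 3 most abundant other genes of each list, the 3 genes most like Lats2, Amotl2 and Yap1, and, after values were seen, Stk3, Ccn1, Ccn2, Ankrd1, Nuak2, Cd37, Ywhab, Sfn and genes that complete a count; 1 gene that meets the rule is not reported here. Alternatives were other scalings (upper quartiles, library totals, the size factors of DESeq2), other filters (none, or 1 CPM in 4 libraries), other tools (limma-voom of limma 3.58.1, DESeq2 1.42.0), a block for the replicate number, thinned counts (27012172 per library), the macrophage score as a covariate, an adjusted p of 0.01, a pseudocount of 2 for ratios, and libraries left out. Figures used matplotlib 3.10.9. The edgeR p-values set the difference between the cultures against the spread between these libraries. Those of the ratios come from permuting the group labels of the libraries.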

Additional observations from a re-analysis of the deposited data

How the results depend on the processing

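The calls of the 7 tested Hippo genes did not change with another scaling (DESeq2's size factors, upper quartiles, library totals), another tool (DESeq2, limma-voom), no filter, thinning or the replicate block. At least 1 CPM in 4 libraries left 6 of them to test, again with 5 called. All genes called numbered 4052, with 2096 higher and 1956 lower; upper quartiles gave 1755 higher, 2492 lower, and library totals 2280 higher, 1513 lower.

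With 1 library left out, 2700 to 4975 genes were called, 2 to 5 Hippo genes (0 to 1 higher, 2 to 4 lower), 7 to 14 other Hippo kinases and adaptors, 5 to 9 inhibitors, 3 to 8 regulators and 4 to 8 targets. At an adjusted p under 0.01, 2091 genes were called, with 1 Hippo gene (0 higher, 1 lower), 4 kinases and adaptors, 2 regulators and 4 targets. With the macrophage score as a covariate 484 genes were called, and 0 Hippo genes (0 higher, 0 lower), 0 kinases and adaptors, 0 inhibitors, 0 regulators and 2 targets. Without both hydrogel 1 and liquid 2 the kinases and adaptors called were 19 and the inhibitors 11, where all genes called numbered 5633.

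Log2 changes turned sign under the covariate for Yap1 (0.12), Lats1 (−0.17), Lats2 (−0.95), Stk4 (0.20), Rassf4 (−0.46), Mob1b (0.12), Mink1 (0.19), Cttnbp2nl (−0.68), Ppp2ca (0.24), Ywhah (0.22), Ywhaz (0.20), Ywhab (0.16), Sfn (0.13), Ptpn11 (0.46), Crim1 (0.0027), Asap1 (0.53), Stk3 (0.36), Ccn1 (−0.62) and Ccn2 (1.89). They turned with upper-quartile scaling for Lats1 (−0.013), Slmap (−0.0037) and Cd37 (−0.027), with library totals for Stk3 (0.019), with limma-voom for Axl (0.16), and without both hydrogel 1 and liquid 2 for Taok3 (−0.0048), Slmap (−0.079), Axl (0.63, adjusted p = 0.00199 in edgeR) and Cd37 (−0.036). Single omissions gave −0.033 to 0.13 for Slmap, −0.22 to 0.52 for Axl, −0.039 to 0.089 for Cd37, −0.12 to 0.0039 for Stk3 and −0.98 to 0.046 for Ccn2. The cause was not tested.

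Libraries with the same replicate number shared no clear deviation (correlations of 0.22, 0.33, −0.13 and 0.10 for numbers 1 to 4, where hydrogel 1 correlated best with liquid 3, at 0.44), so the numbers were not taken to pair them. With the replicate number as a block, 4238 genes were called, Axl turned to 0.14, and Nuak2 (adjusted p = 0.0513), Strn4 (0.0571) and Runx1 (0.0587) lost their calls. In that fit 6 kinases and adaptors were higher and 6 lower, 2 inhibitors higher and 4 lower, 0 regulators higher and 5 lower, and 3 targets higher and 3 lower. In paired form the ratios of Wwtr1 to Yap1 and Stk4 to Stk3 differed by the same 1.86 and −0.33 with an exact sign-flip p of 0.125, the smallest that 4 pairs allow. Without both hydrogel 1 and liquid 2 they differed by 1.95 and −0.36, with 0.1 as the smallest p. Depth limits Tead1, Tead3, Tead4 and Ccn2, and RNA counts do not measure Hippo signalling at the protein level.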
